A study of Mus musculus with 8 samples.

Results

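Chemokine ligands are small secreted proteins that direct the movement of leukocytes and other cells through G protein-coupled receptors. They are grouped by the spacing of their first cysteines into CC (Ccl), CXC (Cxcl), CX3C (Cx3cl1) and C (Xcl1) families. Epithelia make some of them in the resting state, and senescent cells release several inflammatory ones as part of their secretory programme, a state that the cell cycle inhibitors of the Cdkn2a locus can impose. Bmi1 encodes a subunit of Polycomb repressive complex 1, which keeps Cdkn2a silent. The members described here are all protein-coding genes on the array whose symbol follows the pattern of these 4 families, 34 of the 17178 genes with a symbol. They comprise 20 Ccl genes, 12 Cxcl genes, Cx3cl1 and Xcl1, read by 41 probes, and 7 of them have more than 1 probe. The symbols Ccl21b, Ccl21c, Ccl21d, Ccl26 and Ccl27b were matched to no probe and were not analysed here.

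RNA came from the dental epithelium of mouse incisors, teeth that grow throughout life, with 4 samples of genotype WT and 4 of genotype Bmi1-/- (Bmi1 null, or null), all on a mixed genetic background. The labels state that accumax digestion of entire incisors came before the epithelium was pulled off the mesenchyme by hand. The labels name no conditional allele, no age and no sex, and do not say whether the samples of a group were separate animals, so a p-value here covers the spread of these arrays, which may be technical. One array was hybridised per sample, and 2 slides each held 2 samples of each genotype. The title of WT replicate 1 and the name of its file carry different numbers.

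Values are log2 signals minus the 75th percentile of their array, and a difference is Bmi1 null minus WT on that scale. A probe's brightness depends on its sequence, so signals are compared between samples and not between genes. Well above background is the scanner software's call for a spot. That call was made for 69.6% to 74.4% of probes on WT arrays and for 64.2% to 68.2% on Bmi1 null arrays, and the lowest signal so called averaged -6.80 on WT and -6.12 on null arrays. Bmi1 averaged 1.22 across WT and -1.60 across null samples (difference -2.82 ± 0.37, SE, limma adjusted p = 0.0309), with all 4 Bmi1 null arrays below every WT array. The direction held in all 24 alternatives, but the call was lost in 13 of them, 7 of which left out 1 array (adjusted p up to 0.753). Where its probe lies relative to the deleted part is not known here. All 9 dental epithelium markers were well above background on all 8 arrays, but so were all 10 mesenchyme markers, all 5 endothelium markers and all 6 macrophage markers, so RNA of other cell types was present.

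Of the 34 ligand genes, 24 passed the filter (4 or more arrays well above background) and were tested, and 20 of these were so on all 8. The 3 ligands Cxcl1, Cxcl13 and Xcl1 were above background on WT arrays only, on 3, 1 and 2 of them in that order, and were too dim to enter. Their signals overlapped between genotypes, and the limit of the call was higher on Bmi1 null arrays (-6.12 against -6.80 on average). The share of all genes called in 1 genotype only was not counted. For 7 ligands no array gave a signal well above background, namely Ccl1, Ccl22, Cxcl2, Cxcl3, Cxcl5, Cxcl15 and Cxcl17. None was above background on Bmi1 null arrays alone.

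**Figure D1:**
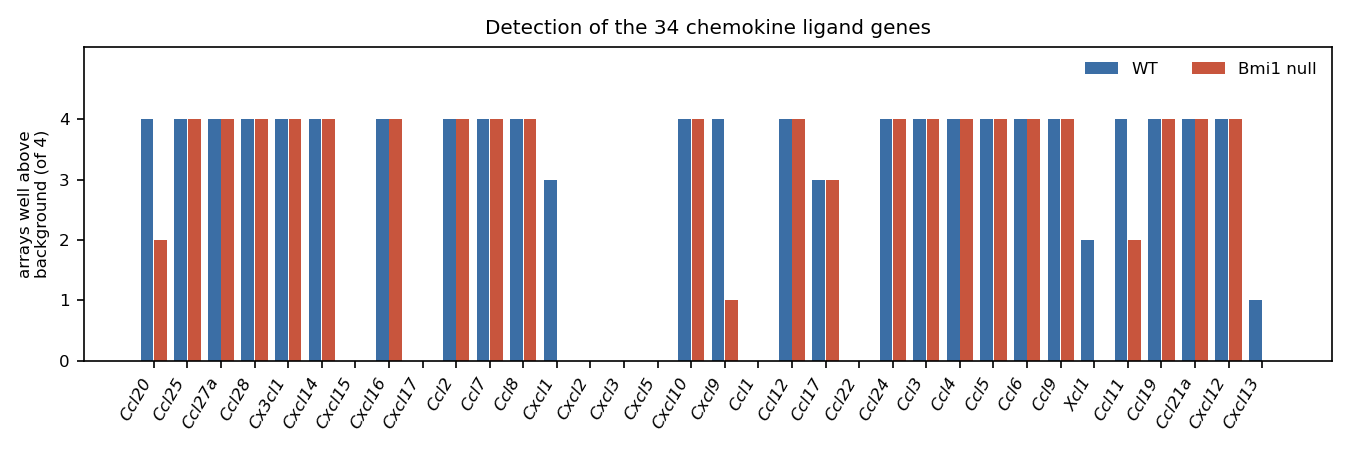
Number of arrays, of 4 per genotype, on which each of the 34 chemokine ligand genes was well above background, in the order epithelial, senescence-linked, interferon-induced, leukocyte and stromal or lymphoid-organ class. Blue bars are WT and red bars Bmi1 null arrays. Genes with no bar were at background on all 8 arrays, and Cxcl1, Cxcl13 and Xcl1 have a WT bar only. The limit of this call averaged -6.12 on Bmi1 null and -6.80 on WT arrays.

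The comparison asked which ligand transcripts differ in dental epithelium without Bmi1. No tested ligand passed 5% FDR in limma over all 22345 genes tested, where 11 genes (0.0492%) passed, 9 higher (0.0403%) and 2 lower (0.00895%). The smallest adjusted p was 0.308, for Ccl24, and the other 23 lay between 0.769 and 0.998. At an unadjusted p under 0.05, 1 of 24 ligands was higher, Ccl28 (4.17%, against 4.2% of all genes), and 2 were lower, Ccl24 and Cxcl9 (8.33%, against 2.16%). Cxcl9 was well above background on 4 WT arrays but only 1 Bmi1 null array, so it passed the filter through the group where it was higher. Ccl24 was the 1 ligand whose groups did not overlap (4.17% of those tested), and 1.26% of all genes were so separated with Bmi1 null lower. None was separated with Bmi1 null higher, as 1.82% of all genes were. The median difference was -0.02 over the ligands and 0.01 over all genes, and 11 ligands had a positive and 13 a negative difference. For 5 ligands the difference exceeded 1 in size, Ccl24, Cxcl9, Cxcl10 and Ccl11 downward and Ccl28 upward.

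**Figure D2:**
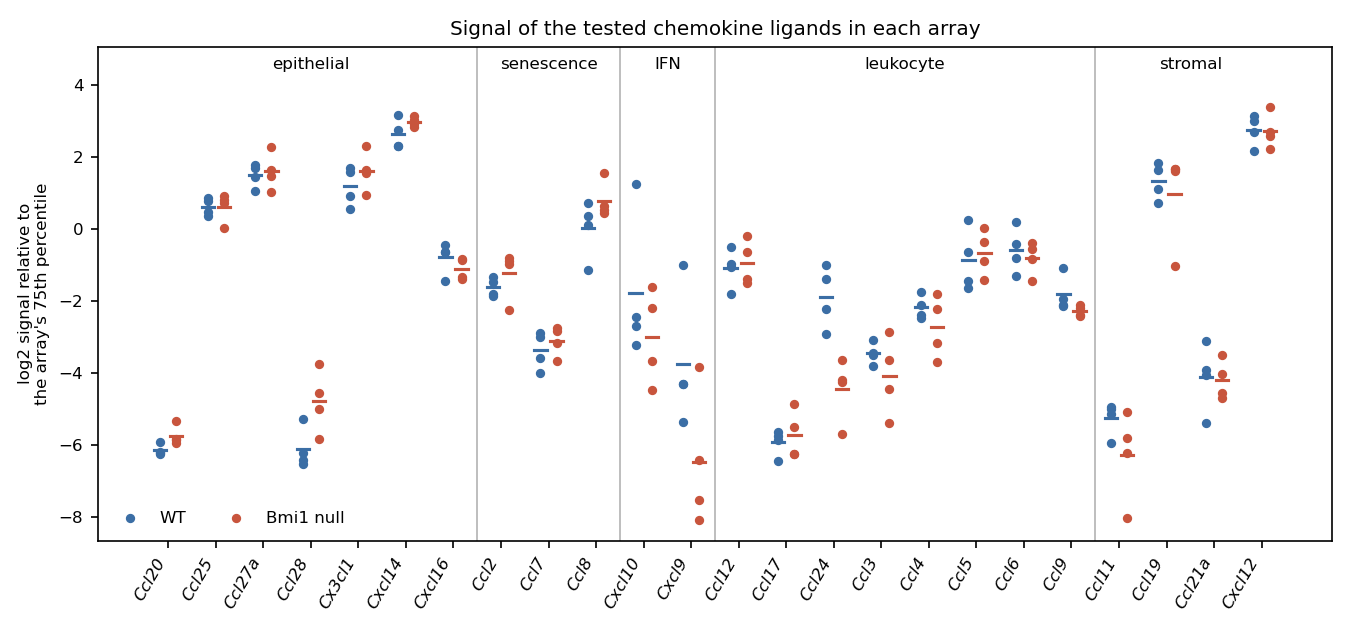
Log2 signal minus the array's 75th percentile for the 24 tested ligands, 1 point per array and a bar at the mean of 4 arrays, with WT in blue and Bmi1 null in red. Vertical lines part the epithelial, senescence-linked, interferon-induced (IFN), leukocyte and stromal or lymphoid-organ classes. The 2 genotypes overlap for every ligand except Ccl24.

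Ccl24 (eotaxin-2) attracts eosinophils through the receptor Ccr3 and is made by alternatively activated macrophages. Its brighter probe, A_52_P18116, read -2.23, -2.92, -1.39 and -1.0 on WT arrays 1 to 4, against -5.70, -3.63, -4.25 and -4.18 on null arrays 1 to 4. All 4 Bmi1 null arrays lay below all 4 WT arrays, and replicate 1 was the lowest of the Bmi1 null samples. The means were -1.89 ± 0.86 across WT and -4.44 ± 0.88 across null samples (SD, n = 4 each), a difference of -2.55 ± 0.51 (SE), or 5.87-fold lower, with a 95% interval of -3.69 to -1.41. This did not pass over all genes (limma unadjusted p = 0.000508, adjusted p = 0.308). The second probe, A_51_P322640, read -3.51, -4.33, -3.02 and -2.39 on WT arrays, against -5.48, -4.93, -5.21 and -5.79 on null arrays. Its groups did not overlap either, with a difference of -2.04 (limma adjusted p = 0.327 when all probes were fitted singly). Within slide 1 the difference of the brighter probe was -3.05 and within slide 2 it was -2.06. Without single arrays it ranged from -2.90 to -2.13, and it was -1.27 with normexp background correction.

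Most leukocyte markers also had negative differences in these samples. In these bulk samples fewer cells of a type and less RNA per cell cannot be told apart. Of 16 tested leukocyte markers, 15 had a negative difference (median -0.63), 7 of them at an unadjusted p under 0.05 (2.16% of all genes were lower at that p), and none was called by limma. One further leukocyte marker on the array, Cd79a, was well above background on 2 WT arrays alone, and its signals overlapped between genotypes. The log2 of the summed signal of the list, in which bright probes weigh most, ran from 3.98 to 4.97 in WT and from 2.61 to 4.74 in Bmi1 null samples. All 6 macrophage markers had a negative difference (median -0.72), with summed signals of 2.68 to 3.79 in WT and 1.84 to 2.92 in Bmi1 null samples. Cd163, a scavenger receptor of resident macrophages, had -2.0 ± 0.58 (SE, limma adjusted p = 0.681), and its groups did not overlap. Of all genes, 1.26% were so separated with Bmi1 null lower. Ptprc, the pan-leukocyte CD45 gene, had -0.84, Csf1r, the receptor for macrophage growth factor, -0.79, and Nkg7, a cytotoxic granule gene, -1.0. Mrc1, the mannose receptor, had -0.99, or -0.53 without Bmi1 null replicate 1.

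Set against the mean of the 6 macrophage markers in the same array, a comparison chosen after the values were seen, the brighter Ccl24 probe lay at -2.23 to -1.52 in WT and at -4.18 to -2.91 in Bmi1 null samples. The other probe lay at -3.64 to -2.90 in WT and at -5.15 to -3.96 in Bmi1 null samples. Neither range overlapped between genotypes, but nor did the Ccl24 signals themselves, so this is not a separate test. The share of all genes so separated on this relative scale was not counted. The mean of the macrophage markers itself differed by -0.88, and the difference of Ccl24 relative to it was -1.67 for the brighter and -1.16 for the other probe. The 6 markers differed by -2.0 (Cd163) to -0.42 (Lyz2), and the other Ccl24 probe by -2.04. A value relative to their mean therefore depends on the markers chosen. The part of macrophage RNA in the Ccl24 values was not tested. The receptor Ccr3, named here for its ligand, was well above background on all 8 arrays at -5.15 across WT and -5.30 across null samples (difference -0.15, 95% interval -0.79 to 0.50).

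**Figure D3:**
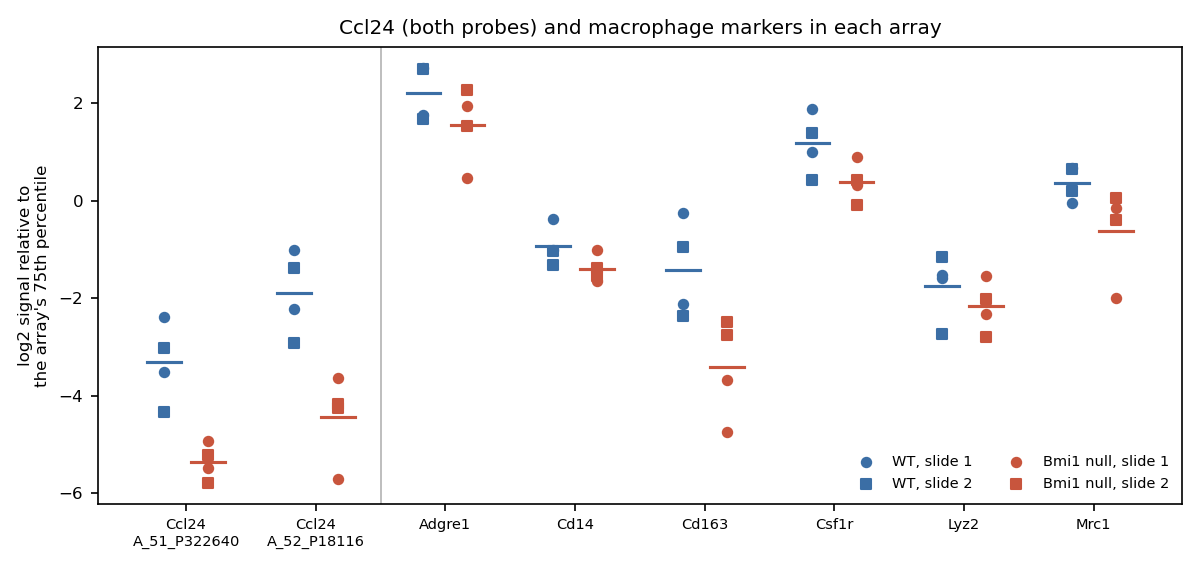
Log2 signal minus the array's 75th percentile for both Ccl24 probes and 6 macrophage markers, 1 point per array, circles for slide 1 and squares for slide 2, with bars at the mean of 4 arrays. Both Ccl24 probes are lower in every Bmi1 null array than in any WT array, as is Cd163, while the other 5 markers overlap between genotypes.

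The ELR-type CXC ligands Cxcl1, Cxcl2, Cxcl3 and Cxcl5 recruit neutrophils through Cxcr2 and are typical products of senescent and inflamed cells. They were near or below background here. Cxcl1 read -6.73, -5.88, -7.20 and -7.55 on WT arrays 1 to 4, against -8.92, -8.21, -6.37 and -7.12 on null arrays 1 to 4. It was well above background on 3 WT arrays and on no Bmi1 null array, and the groups overlapped, since Bmi1 null replicate 3 exceeded 3 of the WT arrays. Its WT mean of -6.84 lies below the background limit of the Bmi1 null arrays, so no fold is given. No array gave Cxcl2, Cxcl3 or Cxcl5 a signal well above background. The 8886 probes that were below background on every array had a median difference of 0.73. The receptor Cxcr2, named for its ligands, was above background on 2 WT arrays and no Bmi1 null array, and its signals overlapped between genotypes.

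Cxcl1, Cxcl2 and Cxcl3 lie in 1 cluster on chromosome 5, and NF-kB is known to drive them from a site close to the start. RefSeq's promoter table (build GRCm38.p6) held a window for 25 of the 34 ligand genes, and the 250 bases before the start were searched on both strands for GAAANNGAAA, an interferon-type element, and for the longest word that the windows of Cxcl1, Cxcl2 and Cxcl3 share. That word is GGGAATTTCCC, 11 letters of the NF-kB type. This exact word was read from these 3 windows, was in no other of the 25 genes, and occurred in 14 of 32851 promoters in all (0.0426%). The interferon-type element occurred for Cxcl10, Cxcl14 and Ccl19, and in 978 promoters in all (2.98%). The 4 windows printed here show the shared letters of the 3 neutrophil ligands, which were at or near background, beside Cxcl10, which was well above background on all 8 arrays. Capitals mark the shared word or the interferon-type element, and each runs 5′ to 3′ on the gene's strand.
Cxcl1 (chr5:90890995-90891244, + strand): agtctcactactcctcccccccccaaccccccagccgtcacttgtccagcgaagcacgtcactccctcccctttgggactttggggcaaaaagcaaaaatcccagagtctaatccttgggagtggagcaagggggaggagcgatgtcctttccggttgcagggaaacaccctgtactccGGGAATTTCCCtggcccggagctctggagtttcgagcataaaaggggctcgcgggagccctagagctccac
Cxcl2 (chr5:90903649-90903898, + strand): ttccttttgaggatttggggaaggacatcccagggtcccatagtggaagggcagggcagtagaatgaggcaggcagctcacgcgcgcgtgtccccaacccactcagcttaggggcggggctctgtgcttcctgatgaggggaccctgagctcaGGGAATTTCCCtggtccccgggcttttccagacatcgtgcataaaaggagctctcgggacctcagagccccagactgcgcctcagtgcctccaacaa
Cxcl3 (chr5:90785851-90786100, + strand): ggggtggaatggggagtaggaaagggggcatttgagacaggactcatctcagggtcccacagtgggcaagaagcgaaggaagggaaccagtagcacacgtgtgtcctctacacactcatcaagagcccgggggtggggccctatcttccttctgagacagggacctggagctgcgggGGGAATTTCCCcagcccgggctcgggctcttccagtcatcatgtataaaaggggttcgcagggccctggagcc
Cxcl10 (chr5:92348890-92349139, - strand): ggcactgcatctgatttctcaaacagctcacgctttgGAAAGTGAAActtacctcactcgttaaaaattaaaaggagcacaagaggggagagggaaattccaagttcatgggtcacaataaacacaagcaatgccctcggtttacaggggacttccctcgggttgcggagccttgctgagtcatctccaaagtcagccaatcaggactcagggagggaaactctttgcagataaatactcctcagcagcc
The shared word began 71, 97 and 73 bases before the start of Cxcl1, Cxcl2 and Cxcl3, and the element of Cxcl10 began 213 bases before its start. A match describes letters only. Other spellings of an NF-kB site were not searched for, so gggaaattcc and ggggacttcc in the Cxcl10 window are unmarked.

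The other senescence-linked ligands are Ccl2 and Ccl7, monocyte attractants that signal through Ccr2, and Ccl8, all in the same ligand cluster on chromosome 11. All 3 had a positive difference and none passed (limma adjusted p = 0.823, 0.865 and 0.79). Ccl8 read 0.72, 0.35, -1.13 and 0.11 on WT arrays, against 0.63, 0.45, 1.53 and 0.51 on null arrays 1 to 4. WT replicate 3 was lowest and Bmi1 null replicate 3 highest, and the other 6 arrays lay between 0.11 and 0.72. Its difference was 0.77 ± 0.39 (SE), with a 95% interval of -0.10 to 1.64. It was 0.39 without WT replicate 3 and 0.52 without Bmi1 null replicate 3, and the difference was 0.12 on slide 1 and 1.42 on slide 2. Ccl2 (MCP-1) read -1.33, -1.48, -1.82 and -1.85 on WT arrays, against -2.25, -0.88, -0.80 and -0.97 on null arrays. Replicates 2 to 4 of Bmi1 null were above all WT arrays, and Bmi1 null replicate 1 was below them all. The difference of Ccl2 was 0.39 ± 0.33 (SE, 95% interval -0.34 to 1.13). It was 0.74 without Bmi1 null replicate 1 and 0.25 without Bmi1 null replicate 3, and 0.02 on slide 1 and 0.77 on slide 2. Ccl7 read -2.89, -3.01, -4.01 and -3.58 on WT arrays, against -3.68, -2.84, -2.76 and -3.16 on null arrays, with a difference of 0.26 ± 0.33 (SE). Null replicates 2 and 3 were above all WT arrays, WT replicate 3 was below all null arrays, and without it the difference was 0.05.

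In the same samples Cdkn2a was well above background on no WT array and on all 4 Bmi1 null arrays, at least 11.3-fold higher relative to the lowest measurable WT signal (limma adjusted p = 0.00408). It passed the filter through the Bmi1 null arrays alone, so this p sets their signal against WT readings at background. The call was lost in 4 of 23 alternatives, namely normexp (adjusted p = 0.241), the authors' deposited value table (0.272), a common floor (0.549) and slide 1 alone (0.753). Of 25 other secreted genes linked to senescence, 18 were tested, 9 with a positive and 9 with a negative difference, and none passed by limma (1 was lower at unadjusted p under 0.05, against 2.16% of all genes). Spp1, which encodes osteopontin, had -1.39, Mmp13, a collagenase, -1.74 and Igfbp2, an insulin-like growth factor binding protein, 0.89. Without Bmi1 null replicate 1 these were -0.75, -0.70 and 0.40, and on slide 2 alone Spp1 had 0.04. Of 12 tested NF-kB response genes, 3 had a positive and 9 a negative difference (median -0.17), and none passed (1 was lower at unadjusted p under 0.05, against 2.16% of all genes). Vcam1, a leukocyte adhesion molecule, had -1.04 ± 0.28 (SE) and Traf1, a TNF receptor adaptor, -0.30 (limma adjusted p = 0.678 and 0.79). For both, the groups did not overlap, as for 1.26% of all genes with Bmi1 null lower. Birc3, an apoptosis inhibitor, had -0.31 and Nfkb2, an NF-kB subunit, 0.32, or -0.18 and 0.14 without Bmi1 null replicate 1. Nfkb2 had 0.61 without Bmi1 null replicate 4 and 0.20 without WT replicate 3.

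Ligands known from epithelia include Cxcl14, Cx3cl1, Cxcl16, Ccl20, Ccl25, Ccl27a and Ccl28. Of the 9 on the array, 7 were tested, 5 with a positive and 2 with a negative difference (median 0.35), and none passed by limma. Cxcl14, which squamous epithelia make constitutively, read 2.29, 2.30, 2.74 and 3.14 on WT arrays, against 3.02, 2.92, 2.82 and 3.12 on null arrays 1 to 4. WT replicates 1 to 3 were below all Bmi1 null arrays and WT replicate 4 was above them all. The difference was 0.35 ± 0.21 (SE, limma adjusted p = 0.793), with a 95% interval of -0.11 to 0.81. Ccl27a, the skin chemokine CTACK, read 1.70, 1.42, 1.06 and 1.76 on WT arrays, against 1.47, 2.27, 1.64 and 1.03 on null arrays. Its range in Bmi1 null samples enclosed the WT range, and its difference was 0.12 ± 0.27 (SE, 95% interval -0.48 to 0.71). Ccl27a has a near-identical copy, Ccl27b, whose RNA this probe may also read.

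Ccl28, the mucosal chemokine MEC, read -6.21, -5.28, -6.41 and -6.52 on WT arrays, against -5.82, -4.56, -3.76 and -4.99 on null arrays 1 to 4. Bmi1 null replicates 2 to 4 were above all WT arrays, and Bmi1 null replicate 1 was below WT replicate 2. The means were -6.10 ± 0.57 across WT and -4.78 ± 0.86 across null samples (SD, n = 4 each), a difference of 1.32 ± 0.47 (SE, limma unadjusted p = 0.0178, adjusted p = 0.769). It was positive on both slides (1.17 and 1.47). The signal was well above background on all 8 arrays but close to its limit, and the difference was 0.94 with a common floor and 0.47 in the authors' deposited value table. Ccl20, which draws Ccr6-bearing cells to epithelia, read -6.22, -6.18, -6.26 and -5.92 on WT arrays, against -5.83, -5.85, -5.95 and -5.32 on null arrays. It was above background on all WT arrays but only 2 Bmi1 null arrays, although 3 of the Bmi1 null signals exceeded every WT signal. Its difference of 0.41 is smaller than the 0.73 by which probes at background differed.

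The membrane-bound ligand Cx3cl1 (fractalkine) averaged 1.18 ± 0.55 across WT and 1.60 ± 0.55 across null samples, and Cxcl16, a second transmembrane chemokine, -0.79 ± 0.45 across WT and -1.11 ± 0.30 across null samples (SD, n = 4 each). Their differences were 0.43 (95% interval -0.30 to 1.15) and -0.31 (-0.90 to 0.28). Ccl25, known for homing lymphocytes to gut and thymus, averaged 0.61 ± 0.24 across WT and 0.61 ± 0.40 across null samples (SD, n = 4 each), with a 95% interval of its difference of -0.52 to 0.51. In the same samples all 9 dental epithelium markers had a positive difference (median 0.61), 7 of them at an unadjusted p under 0.05 and none called by limma. Of all genes 51.4% had a positive difference and 4.2% were higher at that p. They included the enamel matrix genes Ambn (0.95) and Amelx (0.94) and the keratins Krt14 (0.96) and Krt5 (0.81). The log2 of their summed signal ran from 8.16 to 8.64 in WT and from 9.05 to 9.66 in Bmi1 null samples. The part of cell makeup in the epithelial ligands was not tested.

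**Figure D4:**
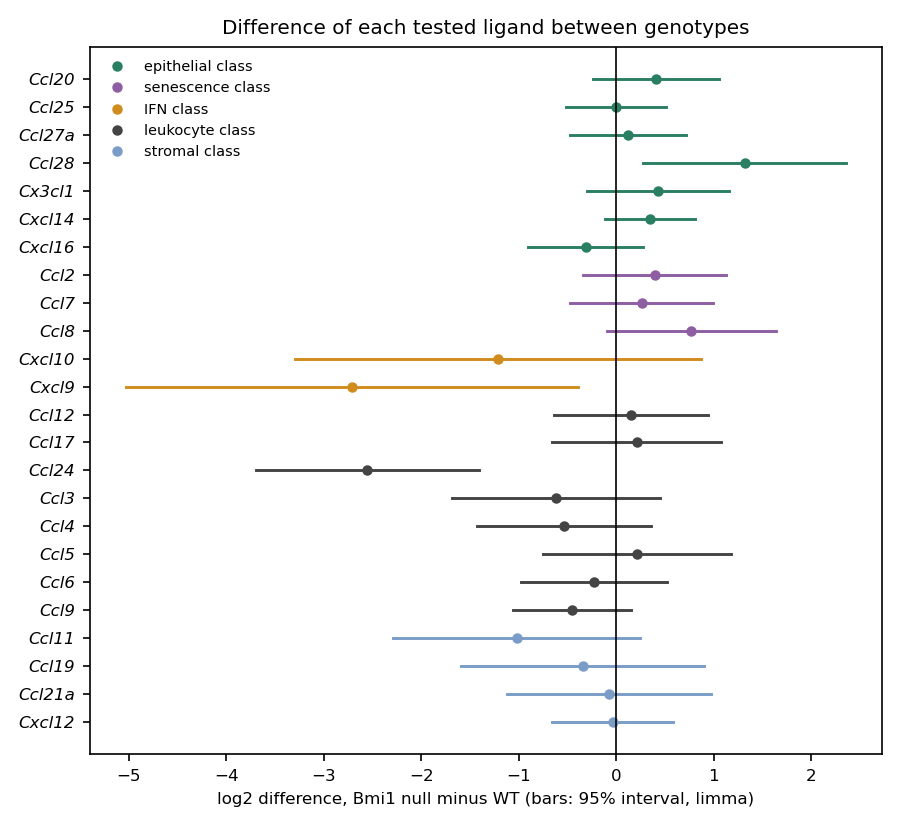
Log2 difference, Bmi1 null minus WT, for the 24 tested ligands, grouped by class, with the 95% interval from limma as a bar. The interval excludes 0 for Ccl28, Ccl24 and Cxcl9 and includes it for the other 21, and none passed 5% FDR over all genes.

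The interferon-induced ligands Cxcl9 and Cxcl10 attract activated T and natural killer cells through Cxcr3. Cxcl9 read -1.01, -5.36, -4.30 and -4.31 on WT arrays, against -6.41, -8.07, -3.82 and -7.52 on null arrays 1 to 4. WT replicate 1 was far the highest, and Bmi1 null replicate 3 lay above the remaining WT arrays. Its difference was -2.71 ± 1.05 (SE, limma unadjusted p = 0.0261, adjusted p = 0.769), and only 1 Bmi1 null array was well above background. Cxcl10 read 1.23, -2.69, -2.44 and -3.22 on WT arrays, against -2.20, -4.47, -1.62 and -3.67 on null arrays. Again WT replicate 1 was highest, and the other 3 WT arrays lay within the Bmi1 null range. Its difference was -1.21 ± 0.94 (SE, limma adjusted p = 0.815). Without WT replicate 1 the differences were -1.80 for Cxcl9 and -0.21 for Cxcl10, and without Bmi1 null replicate 2 Cxcl10 had -0.72. On slide 2, which does not hold that array, they were -0.84 and -0.08, against -4.58 and -2.34 on slide 1.

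The receptor of these ligands had a lower signal in every Bmi1 null array. Cxcr3 read -2.58, -3.07, -2.61 and -2.33 on WT arrays, against -3.91, -3.50, -3.96 and -3.46 on null arrays, and these groups did not overlap (1.26% of all genes were so separated with Bmi1 null lower). Its difference was -1.06 ± 0.26 (SE, limma unadjusted p = 0.0022, adjusted p = 0.646). Of 14 tested interferon response genes, 5 had a positive and 9 a negative difference (median -0.21), and none passed by limma (2 were lower at unadjusted p under 0.05, against 2.16% of all genes). Those with the smallest p were the antiviral synthetases Oas2 (-0.95) and Oas1a (-0.60), the ISG15 protease Usp18 (-0.40) and Ifit2 (-0.44), which binds viral RNA. Usp18 had -0.17 without WT replicate 1 and -0.27 without Bmi1 null replicate 4, and Ifit2 had -0.16 without Bmi1 null replicate 1. The log2 of their summed signal was 4.31 in WT replicate 1, 3.65 to 3.98 in the other WT arrays and 3.41 to 4.26 in Bmi1 null arrays.

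Ligands made chiefly by leukocytes numbered 11 on the array, of which 8 were tested, 3 with a positive and 5 with a negative difference (median -0.34). None passed by limma. Apart from Ccl24 their differences lay between -0.62 and 0.21. Ccl9, a macrophage-derived CC chemokine of rodents, read -1.96, -2.14, -2.10 and -1.08 on WT arrays, against -2.11, -2.42, -2.38 and -2.19 on null arrays 1 to 4. WT replicate 4 was highest, the other WT arrays lay just above or within the Bmi1 null range, and the difference was -0.45 ± 0.27 (SE, limma adjusted p = 0.796), or -0.21 without WT replicate 4. Ccl4 (MIP-1β), an attractant of monocytes and T cells, read -1.75, -2.38, -2.48 and -2.11 on WT arrays, against -3.15, -3.69, -2.22 and -1.79 on null arrays. Bmi1 null replicates 1 and 2 were below all WT arrays and replicates 3 and 4 were not. The difference of Ccl4 was -0.53 in all, -1.49 on slide 1 and 0.42 on slide 2. It was -0.21 without null replicate 2 and -0.84 without null replicate 4.

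Ccl3 (MIP-1α), shown as the neighbour of Ccl4 on chromosome 11 after its values were seen, read -3.50, -3.79, -3.45 and -3.08 on WT arrays, against -5.37, -4.43, -3.63 and -2.86 on null arrays. Here too null replicates 1 and 2 were below all WT arrays and replicates 3 and 4 were not. Its difference was -1.61 on slide 1 and 0.38 on slide 2. Ccl6, a myeloid chemokine of rodents, averaged -0.59 across WT and -0.82 across null samples, and Ccl5 (RANTES), a T cell product, -0.88 across WT and -0.66 across null samples. Ccl12, a mouse monocyte attractant, averaged -1.09 across WT and -0.94 across null samples, and Ccl17, a dendritic cell ligand of Ccr4, -5.92 across WT and -5.71 across null samples. The 95% intervals of these 4 differences were -0.98 to 0.52, -0.76 to 1.18, -0.63 to 0.95 and -0.66 to 1.08. The part of the leukocyte marker differences in the values of leukocyte-made and interferon-induced ligands was not tested.

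Stromal and lymphoid-organ ligands had small or uneven differences, all 4 negative and none past the test by limma. Cxcl12 (SDF-1), a stromal ligand of Cxcr4 and Ackr3, read 2.99, 2.68, 2.17 and 3.14 on WT arrays, against 2.2, 3.37, 2.69 and 2.58 on null arrays 1 to 4. The groups overlapped over nearly their whole range, with a difference of -0.04 ± 0.28 (SE) and a 95% interval of -0.65 to 0.58. Its second probe, which is assigned to another RefSeq transcript, differed by -0.48. Ccl19, a Ccr7 ligand of lymphoid stroma, read 0.70, 1.82, 1.1 and 1.64 on WT arrays, against -1.04, 1.67, 1.59 and 1.66 on null arrays. Bmi1 null replicate 1 was far below the other 7 arrays, and the difference of -0.34 became 0.32 without it. Ccl21a, the other Ccr7 ligand, read -5.37, -3.90, -3.11 and -4.07 on WT arrays, against -4.56, -3.49, -4.02 and -4.68 on null arrays, with a difference of -0.07 ± 0.47 (SE). Its near-identical copies were not separately measured here. Ccl11 (eotaxin), a Ccr3 ligand like Ccl24, read -5.0, -5.13, -5.94 and -4.94 on WT arrays, against -8.01, -5.07, -6.22 and -5.80 on null arrays. Only 2 Bmi1 null arrays were well above background, replicate 1 was the lowest, and the difference was -1.02 ± 0.57 (SE, limma adjusted p = 0.79), or -0.44 without that replicate.

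Bmi1 null replicate 1 was the lowest of its group for 11 of the 24 tested ligands. How often it was lowest over all genes was not counted. Its summed leukocyte signal of 2.61 was also the lowest of all arrays. Bright probes weigh most in that sum, among them S100a9, at 0.72 on this array and 2.84 to 4.13 on the other Bmi1 null arrays. The 2 slides differed as well. The median ligand difference was -0.23 on slide 1, with 8 of 24 positive, and 0.38 on slide 2, with 17 of 24 positive. The sign was the same on both slides for 13 ligands and opposite for 11. Ccl24, Ccl28, Cxcl9, Cxcl10 and Ccl11, the ligands with differences over 1, each kept their sign on both. With the slide as a block no ligand passed, and the adjusted p of Ccl24 was 0.382 by limma.

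**Figure D5:**
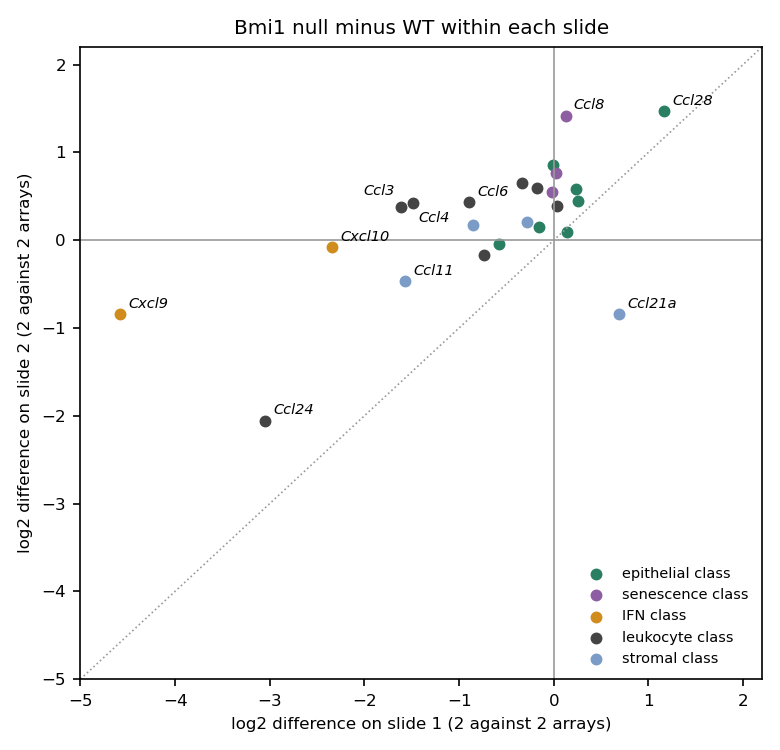
Log2 difference, Bmi1 null minus WT, of the 24 tested ligands on slide 1 (horizontal) and slide 2 (vertical), each from 2 against 2 arrays, coloured by class. The dotted line marks equal differences. Ccl24 is low on both slides, while Cxcl9 and Cxcl10 are lower on slide 1 and Ccl3, Ccl4 and Ccl6 have opposite signs.

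Among 23 chemokine receptor genes, 16 were tested, 8 with a positive and 8 with a negative difference (median -0.01), and none passed by limma (1, Cxcr3, was lower at unadjusted p under 0.05, against 2.16% of all genes). Ackr4, a scavenger of Ccl19, Ccl21 and Ccl25, had -1.23 ± 0.68 and Ccr7, the signalling receptor of the first pair, 0.97 ± 0.54 (SE). Ackr4 had -0.76 without WT replicate 3 and -1.84 without WT replicate 2, and Ccr7 had 0.54 without Bmi1 null replicate 1. Ccr10, the receptor of Ccl27 and Ccl28, was at background on all 8 arrays. Among other cell types, all 5 endothelium markers had a negative difference (median -0.31), with Tek, an angiopoietin receptor, at -1.10. Of 10 mesenchyme markers 7 had a positive difference (median 0.32), with the collagen genes Col1a1 at 0.98 and Col1a2 at 0.43. The other 3 were negative, Pdgfrb at -0.37, Pdgfra at -0.20 and Twist1 at -0.16. Without Bmi1 null replicate 1 they had -0.22, 0.06 and 0.01 in that order. The 3 tested erythroid markers had positive differences of 0.58 for Slc4a1, 0.35 for Alas2 and 0.30 for Hba-a1, and without Bmi1 null replicate 2 the latter pair had 0.03 and -0.17. None of these passed by limma, and their part in the ligand values was not tested.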

How the data were processed

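Each sample was hybridised to a single-colour Agilent array. Per the file headers, the authors used a G2505C scanner and Feature Extraction 10.5.1.1 under protocol GE1-v5_95_Feb07 with a grid of build mm9. The deposited intensity used here is the processed signal, which the software corrects for background and spatial trend but does not normalize between arrays. The deposited detection, saturation and outlier calls are indicators of 0 or 1. The authors' deposited value table holds log2 values that follow the log2 median signal closely (lowest Pearson correlation of an array 0.996). The median value of an array ran from 6.763 to 6.769. The steps behind it are not given in sources used here. It served as an alternative.

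Of 41174 noncontrol probes, 24844 got a symbol through their accession from a RefSeq gene table, which was used for names and gene order only. Outlier spots were left out, and none of them was a ligand probe. Signals were taken to log2 minus the array's 75th percentile. Probes well above background on at least 4 arrays entered, and the entering probe with the highest mean stood for its gene. Bmi1 null and WT were compared over 22345 genes in R 4.3.3 with limma 3.58.1 (lmFit, eBayes with an intensity trend, two-sided, Benjamini-Hochberg, 5% FDR), with no covariates. The fit was tested on simulated data. The number of arrays limits the precision.

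Values in every array are given for Ccl24, Cxcl1, the 3 ligands with the brightest probes, those with unadjusted p under 0.05 and the next smallest p up to 12, and for classes with few tested members. Of context lists, up to 4 members with the smallest p are named, except for some that are not reported here. The ligands, classes and lists were chosen with earlier results of these data known. Alternatives changed the background correction, the normalization, the filter, the probe rule, the variance model, the slide, the array left out and the FDR.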

Additional observations from a re-analysis of the deposited data

Results flagged for a closer look

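Among the 24 tested ligands and Cxcl1, 4 single arrays stood far from the other 3 of their group, out of 50 groups of 4 examined. Chance gives about 1 in 20 such groups. Ccl19 was -1.04, 1.67, 1.59 and 1.66 in the Bmi1 null replicates, where replicate 1 at -1.04 stood apart from 1.59 to 1.67. Ccl2 in Bmi1 null replicate 1 was -2.25, against -0.97 to -0.80 in the other Bmi1 null arrays. Ccl8 in Bmi1 null replicate 3 was 1.53, against 0.45 to 0.63. Ccl9 in WT replicate 4 was -1.08, against -2.14 to -1.96. Bmi1 null replicate 1 accounts for 2 of the 4, and it also had the lowest summed leukocyte signal, in which bright probes weigh most.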

How the results depend on the processing

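In 25 alternatives no ligand was called in either direction, and the smallest adjusted p of any ligand was 0.106, for Ccl24 with array weights (limma). The adjusted p of Ccl24 ran up to 0.961, without WT replicate 4, and its difference stayed negative in every alternative. Over all genes the number called ranged from 0, with the filter on all 8 arrays or slide 1 alone, to 22 with array weights, against 11. The ligand median, -0.02, was 0.38 on slide 2 alone and ranged from -0.16 to 0.15 without single arrays. No paired analysis was possible because the labels give no replicate numbers that groups share. With normexp and in the authors' deposited value table, in that order, Ccl24 was -1.27 and -1.88, Cxcl9 -0.49 and -1.30, and Ccl28 0.93 and 0.47. With a common floor Cxcl9 was -1.62 and Ccl11 -0.42. With no filter 5 ligands were higher and 2 lower at an unadjusted p under 0.05, and 4 of the 5 (Ccl22, Cxcl3, Cxcl15 and Cxcl17) were at background on all 8 arrays. Whether the ligands at background differ cannot be told at this signal.

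Of 572 ligand values under alternatives 41 turned sign, all of them short of the threshold by limma, and 10 ligands kept their sign in every alternative. On slide 1 alone the ligands that turned sign were Ccl12 (-0.34), Ccl17 (-0.18), Ccl21a (0.69), Ccl7 (-0.022) and Cx3cl1 (-0.0064). On slide 2 alone they were Cxcl12 (0.21), Ccl4 (0.42), Ccl6 (0.43), Ccl25 (0.15), Ccl19 (0.17) and Ccl3 (0.38). With array weights they were Ccl25 (0.13), Cxcl12 (0.028), Ccl5 (-0.054), Ccl21a (0.26) and Ccl19 (0.17). With normexp they were Ccl11 (0.51), Ccl3 (0.14) and Ccl21a (0.30). With cyclic loess Ccl21a was 0.015 and Ccl25 0.010, and with scaling by the median of detected probes Ccl25 was 0.010. Leaving out single arrays turned the sign of 9 ligands, with ranges of -0.089 to 0.35 for Ccl12, -0.078 to 0.39 for Ccl17, -0.58 to 0.32 for Ccl19, -0.49 to 0.26 for Ccl21a, -0.10 to 0.19 for Ccl25, -0.11 to 0.31 for Ccl27a, -0.049 to 0.58 for Ccl5, -0.47 to 0.031 for Ccl6 and -0.26 to 0.13 for Cxcl12. The causes were not tested.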
